A study of Mus musculus with 4 samples.

Results

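Ependymal cells, the multiciliated cells that line the brain ventricles, were examined in a droplet single-cell RNA-seq series of the postnatal mouse telencephalon. They were chosen by their own UMI counts (unique molecular identifiers, 1 for each captured transcript). A barcode was kept with 2000 to 40000 UMIs, no fewer than 1000 genes and a mitochondrial share of 10% or less, and it was called ependymal when its UMIs of *Tmem212*, *Ccdc153* and *Foxj1* summed to at least 3, no UMI of *Dlx1*, *Dlx2* or *Pdgfra* was present, and fewer than 50 UMIs of *Ttr* were present. This rule found 747 ependymal cells among 17623 cells kept from 27742 barcodes, or 4.24% (95% exact binomial interval 3.95 to 4.55%, which covers counting error only). Of the 1001 cells with 3 or more UMIs of the 3 gate genes, 181 were removed for a *Dlx* UMI, 71 for *Pdgfra* and 2 for *Ttr*.

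Motile cilia carry an axoneme of microtubule doublets around a central pair. Dynein arms, built of heavy, intermediate and light chains, slide the doublets, and radial spokes and the nexin-dynein regulatory complex shape the beat. A multiciliated cell must first make many centrioles, in part on deuterosomes, which contain Deup1, and these centrioles dock at the apical surface as basal bodies. Gmnc and Mcidas act early in this programme, and Foxj1, Myb and the Rfx factors turn on cilium genes. Ependymal cells arise from radial glia before birth and mature in the first postnatal days, when their beating begins to move cerebrospinal fluid.

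All animals carried *NestinCreERT2* and a *tdTomato* reporter, and the telencephalon of pups given tamoxifen before birth was sorted for tdTomato at postnatal day 5. Control animals were *Chd8*+/+ and mutant animals were *Chd8*+/F, in which Cre removes internal exons of 1 copy of *Chd8*, a chromodomain helicase gene. Each group had 2 libraries, each pooled from 3 mice, so the cells come from a Nestin-driven lineage that had recombined and not from all ependymal cells. The pools cannot be divided into mice, and p-values measure the spread between libraries.

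The replicate numbers marked more than a repeat. *Xist*, transcribed from the inactive X chromosome, had a level of 875 CPM (UMIs per 1000000 UMIs of the cells summed) in the control and 918 CPM in the mutant ependymal cells of replicate 2, while both libraries of replicate 1 were near 0 (0.239 and 0.266 CPM). The Y-linked gene *Uty* was at 98.5 and 88.9 CPM in replicate 1 and at 0 in replicate 2, and *Ddx3y*, *Eif2s3y* and *Kdm5d* followed it. Replicate 1 therefore had male transcripts and replicate 2 female transcripts in both genotypes, although the study's reporting summary names male mice for these sequencing samples. The file headers also name Cell Ranger 7.0.0 for replicate 1 and 5.0.1 for replicate 2, so sex, software version and replicate number cannot be told apart. Both genotypes held 1 library of each kind.

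The ependymal cells were deeper than the other cells kept. Their median depth was 18986 and 14235.5 UMIs in control replicates 1 and 2 and 18353 and 14785 UMIs in mutant replicates 1 and 2, against 11241.5 to 11577.5 UMIs in the other cells of the same libraries. Their median mitochondrial share was 2.70%, 6.27%, 3.19% and 4.94% in the same order. No doublet caller was run, and 19, 4, 14 and 5 ependymal cells held over 30000 UMIs. No ependymal barcode was shared between libraries, whereas 8 to 21 barcodes of any kind were shared by each pair of libraries.

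The label held against its markers (the plot of marker levels). Levels are CPM of the summed UMIs of the ependymal cells in a library. Since 3′ UMI counts are not scaled by length, they were compared between cells and not between genes. A gene said to lead a list, or to be its most abundant, had the highest CPM in it, as a description only. *Rarres2*, which encodes the secreted protein chemerin and did not enter the gate, was at 1047 and 1524 CPM in the control libraries and 1028 and 1664 CPM in the mutant libraries, against a mean of 52.0 CPM over the other cells. All 4 ependymal libraries stood above all libraries of the other cells. The gate genes were high by construction. *Foxj1* (chr11:116330704-116335399 on mm10, minus strand), the forkhead factor of motile ciliogenesis, was at 648, 707, 665 and 915 CPM in control replicates 1 and 2 and mutant replicates 1 and 2, and *Tmem212* (chr3:27866066-27896368, minus strand), a membrane protein gene used as an ependymal marker, was at 1584, 1266, 1641 and 1409.8 CPM.

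**Figure D1:**
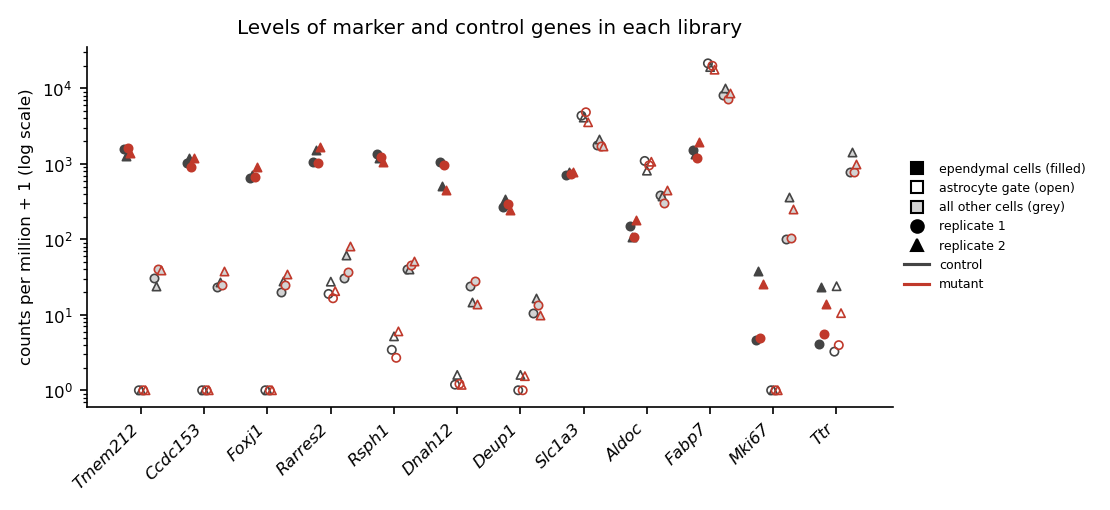
Levels (CPM + 1, log axis) of markers and control genes in each library, for ependymal cells (filled), cells chosen by astrocyte genes (open) and all other cells (grey); circles are replicate 1, triangles replicate 2, dark grey control and red mutant. *Foxj1*, *Tmem212* and *Ccdc153* chose the ependymal cells and were absent from the astrocyte gate by its choice, whereas *Rarres2* entered neither gate. *Slc1a3*, *Aldoc* and *Fabp7* were lower in ependymal cells than in the astrocyte gate in all 4 libraries.

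At the edge of the gate the cells had other levels of both an astrocyte and an ependymal gene. The 10, 11, 13 and 10 cells with exactly 3 gate UMIs in control replicates 1 and 2 and mutant replicates 1 and 2 had *Aldoc*, a glycolytic enzyme gene high in astrocytes, at 488, 421, 606 and 786 CPM, against 149, 106, 107 and 178 CPM over all ependymal cells. Their *Rarres2* was at 23.8, 167, 102 and 59.5 CPM. The 33, 30, 25 and 36 cells just outside, with 2 gate UMIs, had *Aldoc* at 770, 433, 610 and 869 CPM. Cells at 3 UMIs were thus closer to the cells outside the gate than to the ependymal cells as a whole in both genes, and the counts below were repeated with a minimum of 5.

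Markers of other cell types were present in many of the cells. Without cells holding 3 or more UMIs of any of 7 lists (inhibitory neuron, oligodendroglial, microglia, endothelial, mural, fibroblast and erythroid), 111 of 216, 117 of 176, 104 of 197 and 90 of 158 ependymal cells were left, or 1.94%, 3.94%, 1.84% and 2.74% of all cells. The choroid plexus and neuron lists were not part of that removal, since with them 11, 6, 7 and 9 cells were left. The choroid plexus list of 12 genes summed to 489, 620, 493 and 702 CPM. *Calml4* was its most abundant gene at 245, 306, 272 and 381 CPM and the folate receptor gene *Folr1* was at 89.0, 104, 74.8 and 106 CPM, while *Ttr*, which the gate limits, stayed at 3.10, 22.2, 4.53 and 12.9 CPM. The choroid plexus genes *Kl* and *Kcne2* were at 0 to 0.370 CPM. The neuron list of 10 genes was led by *Map2* at 261 to 331 CPM, and *Tubb3*, *Stmn2* and *Dcx* were at 2.59 to 18.4 CPM. The microglia list, led by *Cx3cr1*, summed to 83.0, 3.33, 31.1 and 5.84 CPM (control replicates 1 and 2, then mutant replicates 1 and 2), higher in replicate 1 of both genotypes. The mural list, led by *Acta2*, summed to 148 CPM in mutant replicate 2 against 70.3 to 110 CPM elsewhere, the oligodendroglial list (*Olig1*) to 51.4 to 125 CPM, the endothelial list (*Itm2a*) to 41.7 to 83.1 CPM, the fibroblast list (*Col1a2*) to 49.5 to 65.5 CPM and the erythroid list (*Hbb-bs*) to 2.93 to 16.3 CPM. The genotype tests and levels below were repeated without cells carrying the 7 lists, and the part of the choroid plexus and neuron markers in them was not tested.

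Genes of the motile axoneme set the ependymal cells apart. A gene was counted as higher when its CPM plus 10 was at least 4 times that of the other cells in each of the 4 libraries, which is a description with no test because the gate chose the cells on their counts. Of 11569 genes at 10 or more CPM, 485 were higher (4.19%) and 88 lower (0.761%), and the median gene was at -0.12 on the log2 scale. Of the 97 genes tested in 4 lists of motile cilium components, 82 were higher and none was lower. Of the choroid plexus list 2 of 7 genes tested were higher and 0 lower, with a median of 1.68 on the log2 scale.

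Among the dynein arm genes, which encode the motors and their chains, 19 of 23 were higher, with a list median of 3.46 on the log2 scale. *Dnah12*, an inner arm heavy chain, was at 1055 and 515 CPM in the control libraries and 953 and 451 CPM in the mutant libraries, against a mean of 19.1 CPM in the other cells. *Dynlrb2*, a roadblock light chain, was at 1271, 1082, 1265 and 1085 CPM against 37.9 CPM. *Dynll1*, *Dnal4*, *Dnah8* and *Dnah14* did not reach the 4-fold mark in every library, and *Dynll1*, a light chain shared with cytoplasmic dynein, was also at 630 CPM in the other cells. In the docking and assembly list 20 of 23 were higher (median 3.22). *Ccdc39*, a ruler of axonemal repeats, led this list at 458, 755, 469 and 565 CPM. *Drc3* of the nexin-dynein regulatory complex was at 561, 394, 513 and 436 CPM.

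In the radial spoke and central pair list 20 of 24 were higher (median 3.62). *Rsph1*, a radial spoke head gene, was at 1349 and 1184 CPM in the control libraries and 1236 and 1063 CPM in the mutant libraries, against 43.5 CPM in the other cells. *Hydin*, a central pair gene whose loss causes hydrocephalus, was at 593, 565, 504 and 396 CPM. All 4 values of each gene were far above the other cells, and those of *Hydin* were lowest in mutant replicate 2. In the list of doublet and inner tubule proteins 23 of 27 were higher (median 3.71). *Tubb4b*, the beta tubulin of axonemes, was at 3595, 3150, 3151 and 3960 CPM against 336 CPM, and *Cfap44* at 626, 563, 533 and 495 CPM was at least 20.5 times above the other cells in each library (on CPM plus 10).

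Transport genes differed less from the other cells. Intraflagellar transport (IFT) trains and the BBSome carry cargo in motile and primary cilia alike. Of their 31 genes 10 were higher by 4-fold and none was lower, with a median of 1.86. *Ift88* was at 237, 178, 224 and 141 CPM against 17.7 CPM in the other cells, and *Ift20* at 484, 500, 450 and 526 CPM against 87.5 CPM. Planar polarity genes, which orient the beat, had 0 of 13 higher and a median of 0.22. Among them *Celsr1* was at 80.6, 89.5, 77.2 and 80.1 CPM against 20.4 CPM, and *Vangl2* at 51.5, 44.4, 57.2 and 58.8 CPM lay near the 66.5 CPM of the other cells.

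**Figure D2:**
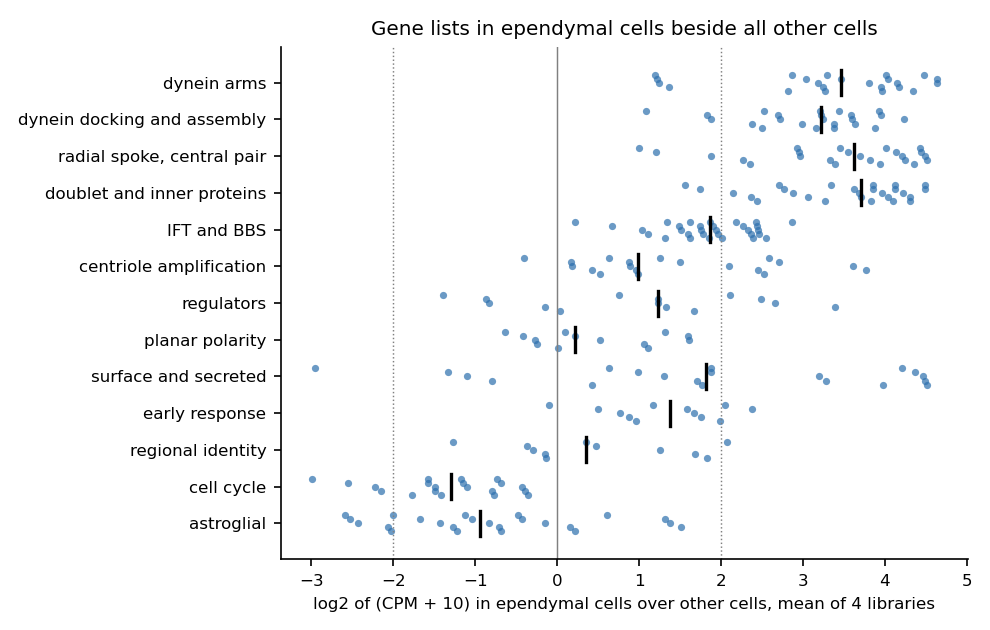
Each point is a gene, placed by the log2 ratio of CPM + 10 in ependymal cells to that in all other cells (mean of the 4 libraries), and bars mark list medians; dotted lines mark 4-fold. The 4 motile cilium lists have medians from 3.22 to 3.71, the IFT and BBS list 1.86, and the cell cycle and astroglial lists lie below 0.

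Promoters of these genes are shown because the Rfx factors named above bind a half-site, GTTGCC, that can be searched for. Sequences are from RefSeq (GRCm38.p6), run from 250 bases before to 50 after the start site, and were matched by symbol for 78 of 98 genes of the 4 motile cilium lists (*Foxj1* and *Rarres2* had none). Of the 87 promoters of those 78 genes 36 held the half-site on either strand (41.4%), as did 14 of 27 in the IFT and BBS list (51.9%), 3 of 15 in the surface and secreted list (20%) and 5 of 28 in the astroglial list (17.9%), against 12.5% of all 32851 promoters and 13.6% of those of the genes tested. The forkhead letters TGTTTAC were in 3 of the 87 (3.45%) against 3.65% of all promoters, and the E2F letters TTTCCCGC in 1 (1.15%) against 1.07%. The longer form GTTGCCATG, which contains the half-site, was in 3 (3.45%) against 0.773%. The surface and secreted list includes *1110017D15Rik* and *Fam183b*, whose promoters held the half-site. A match is a description of letters and not a binding site. The following 4 named genes with a match are shown in order of their lowest ratio to the other cells over the 4 libraries, 25.5 for *Ccdc153*, which the gate used, 20.5 for *Cfap44*, 20.4 for *1110017D15Rik* and 19.9 for *Dynlrb2* (on CPM plus 10), and *1700094D03Rik* came next at 18.9. Capitals mark the half-site or its reverse complement GGCAAC.
Ccdc153: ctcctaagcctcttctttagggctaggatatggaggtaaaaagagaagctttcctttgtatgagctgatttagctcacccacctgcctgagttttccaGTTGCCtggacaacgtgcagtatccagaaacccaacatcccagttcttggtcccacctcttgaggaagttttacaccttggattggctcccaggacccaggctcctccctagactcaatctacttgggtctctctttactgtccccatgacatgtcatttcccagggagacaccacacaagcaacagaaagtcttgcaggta
Cfap44: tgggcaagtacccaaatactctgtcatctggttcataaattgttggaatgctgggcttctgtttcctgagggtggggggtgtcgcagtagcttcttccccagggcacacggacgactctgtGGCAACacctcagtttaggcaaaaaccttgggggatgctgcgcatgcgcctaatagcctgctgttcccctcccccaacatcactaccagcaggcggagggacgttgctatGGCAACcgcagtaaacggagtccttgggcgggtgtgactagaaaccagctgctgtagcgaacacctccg
1110017D15Rik: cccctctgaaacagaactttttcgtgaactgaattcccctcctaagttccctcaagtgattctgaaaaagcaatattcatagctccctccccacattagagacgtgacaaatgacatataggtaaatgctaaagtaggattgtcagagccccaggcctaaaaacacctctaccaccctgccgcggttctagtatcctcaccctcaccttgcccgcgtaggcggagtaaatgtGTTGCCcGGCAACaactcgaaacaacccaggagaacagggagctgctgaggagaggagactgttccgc
Dynlrb2: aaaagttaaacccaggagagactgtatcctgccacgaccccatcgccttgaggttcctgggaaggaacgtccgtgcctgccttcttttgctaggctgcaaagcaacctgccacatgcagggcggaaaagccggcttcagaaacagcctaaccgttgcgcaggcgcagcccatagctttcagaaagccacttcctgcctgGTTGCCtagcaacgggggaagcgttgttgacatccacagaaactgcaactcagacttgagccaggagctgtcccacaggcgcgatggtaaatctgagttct
They lie at chr9:44240427-44240726 (plus strand), chr16:44394549-44394848 (plus), chr4:41507715-41508014 (minus) and chr8:116504765-116505064 (plus). Counted from the start site, the half-sites begin at -152 in *Ccdc153*, at -129 and -19 in *Cfap44*, at -18 and -11 in *1110017D15Rik*, where both strands carry one, and at -51 in *Dynlrb2*.

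Of the regulators, 3 of the 14 tested outside the gate were higher by 4-fold and none was lower. *Myb* was at 225, 249, 228 and 278 CPM against 14.2 CPM in the other cells, *Rfx2* at 126, 84.7, 142 and 92.2 CPM against 8.87 CPM, and *Trp73*, a p53 family gene, at 61.3, 50.7, 64.7 and 54.2 CPM against 2.06 CPM. *Gmnc* and *Mcidas* were at 12.3 to 17.7 CPM and 30.9 to 56.2 CPM against 0.581 and 1.64 CPM. Neither reached the 4-fold mark in every library after adding 10 CPM. *Gmnn*, which encodes the replication inhibitor Geminin, was low at 6.44 to 11.5 CPM against 38.2 CPM.

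The surface and secreted list had 8 of 20 genes higher and 1 lower (median 1.82). It includes *Dbi*, *Fam183b* and *1110017D15Rik*, so these counts are not of surface and secreted proteins alone. *Mia*, which encodes a small secreted protein, was at 740.2 and 981 CPM in the control libraries and 779 and 1094 CPM in the mutant libraries against 33.7 CPM, and *Tm4sf1* at 1124, 824, 993 and 1088 CPM against 46.3 CPM. *Igfbpl1* was the lower gene, at 18.6 to 49.2 CPM against 318 CPM. *Dbi*, an acyl-CoA binding protein gene, reached 11208 to 14668 CPM, and *Cd24a* 481 to 565 CPM.

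The astroglial list ran the other way. Ependymal cells and astrocytes share radial glial parents, and 0 of 24 astroglial genes were higher and 2 lower (*Fabp7* and *Hes5*) beside all other cells, with a median of -0.94. A second comparison used cells chosen by 3 or more UMIs of the astrocyte genes *Aldh1l1*, *Aqp4* and *Gjb6* and no *Mki67* or *Top2a* (717, 374, 674 and 425 cells). These cells also had to hold no UMI of *Tmem212*, *Ccdc153*, *Foxj1*, *Dlx1*, *Dlx2* or *Pdgfra*. Low levels of ependymal genes in them are therefore partly set by the choice. *Aldh1l1* and *Aqp4*, list members, were lower in ependymal cells because they chose the astrocytes. Without these 2 genes, 8 of 22 were lower beside 1.12% of all genes tested, and 0 were higher beside 5.25%, with a list median of -1.97. With *Aldh1l1* and *Aqp4* 10 of 24 were lower. *Fabp7*, a radial glial fatty acid binding protein gene, was at 1541, 1334, 1193 and 1921 CPM against 19532 CPM in that gate, and *Slc1a2*, a glutamate transporter gene, at 253, 345, 228 and 491 CPM against 3427 CPM. *Sox9*, *Vim* and *Id4* did not follow them. *Sox9* was at 641, 650, 721 and 833 CPM in ependymal cells, above the 473 CPM of the astrocyte gate in every library.

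Beside cells with the stem-like genes *Veph1* and *Sfrp1* (238, 95, 201 and 72 cells), 516 of 11569 genes were higher (4.46%) and 74 lower (0.64%). Of the dynein arm genes 19 of 23 were counted as higher. The stem-like cells, too, had to hold no UMI of *Tmem212*, *Ccdc153* or *Foxj1*, so this contrast is partly set by their choice. The choroid plexus gate held 4, 4, 8 and 1 cells and gave no level.

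The 20 genes outside the lists with the largest lowest ratio included several with no assigned name. *3300002A11Rik* led them at 1020, 657, 859 and 723 CPM against 19.7 CPM in the other cells. *Hdc*, histidine decarboxylase, the enzyme that makes histamine, was at 409 and 486 CPM in the control libraries and 400.1 and 494 CPM in the mutant libraries against 14.1 CPM. It was at 0 to 1.44 CPM in the astrocyte gate and 0 to 0.759 CPM in the stem-like gate. Both gates excluded cells with a UMI of *Tmem212*, *Ccdc153* or *Foxj1*, and *Hdc* was chosen by its ratio to the other cells. *Ak9*, an adenylate kinase gene, *Mlf1*, *Pifo* and *Capsl* were in the same 20, and *Mlf1* was also at 22.8 CPM in the stem-like gate.

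A part of the ependymal cells carried transcripts of centriole amplification. This list had 5 of 19 genes higher by 4-fold, among them *Deup1* (chr9:15559864-15627933, minus strand), at 269, 336, 292 and 246 CPM against 11.6 CPM. To compare cells at 1 depth, each was thinned to 2000 UMIs. A cell was then called centriole-gene positive with at least 1 UMI of *Deup1*, *Ccno*, *Cdc20b* or *Mcidas*. This held for 59 of 216 (27.3%) and 49 of 176 cells (27.8%) in the control libraries and 57 of 197 (28.9%) and 41 of 158 (25.9%) in the mutant libraries. In the astrocyte gate, which excluded cells with a UMI of the ependymal gate genes, it held for 0.742 to 1.34%. Without thinning it held for 60.8 to 71.3% of ependymal cells, so the share depends on depth. It also moved with the mitochondrial limit: among cells with at most 5% mitochondrial UMIs it was 28.02%, 45.6%, 32.7% and 34.6% (58 of 207, 26 of 57, 56 of 171 and 28 of 81 cells).

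The positive cells also carried some genes of mitosis, but not the cell cycle list as a whole. Of its 20 genes 7 were found in a larger share of positive than of other ependymal cells in 4 of 4 libraries (*Top2a*, *Cdk1*, *Ccnb1*, *Ccnb2*, *Cenpf*, *Ube2c* and *Cdc20*) and 0 in a smaller share in all 4, beside 11.4% and 11.9% of all genes tested. These are descriptions, since the cells were divided by their own counts. Of the positive cells 33.9%, 40.8%, 33.3% and 46.3% (control replicates 1 and 2, mutant replicates 1 and 2) had at least 2 UMIs summed over *Mki67*, *Top2a*, *Cdk1*, *Cenpf*, *Birc5* and *Ube2c*, against 1.27%, 6.30%, 2.86% and 3.42% of the remaining ependymal cells. *Top2a*, a topoisomerase gene of late cell cycle, had a UMI in 33.9%, 38.8%, 31.6% and 43.9% of positive cells and in 2.56 to 7.09% of the others. *Cdk1*, the mitotic kinase gene, was found in 24.5 to 31.7% against 2.55 to 3.15%, *Cenpf*, a kinetochore gene, in 17.5 to 30.6% against 2.86 to 11.1%, and *Cdc20*, an activator of the anaphase-promoting complex, in 12.2 to 24.6% against 1.27 to 3.15%. *Ccnb1*, the mitotic cyclin B1 gene, was found in 12.3 to 29.3% against 0.637 to 2.86%.

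The other 13 genes of the list, some of them mitotic, went in no single direction over the 4 libraries. *Aurkb*, a mitotic kinase gene, was found in 0 to 4.88% of positive cells and 0 to 0.855% of the others. *Mki67*, the common proliferation marker, had a UMI in 0, 8.16, 1.75 and 0% of positive cells and in 0, 1.57, 0.714 and 3.42% of the others. *Ccna2*, the cyclin A gene of dividing somatic cells, was found in 0 to 3.39% of positive cells, *Birc5* in 0 to 3.51% and *Rrm2*, a nucleotide reductase gene of S phase, in 1.69 to 7.32%. In 596, 525, 646 and 504 cells with at least 3 UMIs of *Mki67* and none of the gate genes, a reference added after the data were seen, *Ccna2* had a UMI in 30.9 to 33.7%, *Birc5* in 44.95 to 55.2% and *Rrm2* in 32.2 to 41.3%. *Ccna1*, the second cyclin A gene, known from male germ cells, showed the reverse and was also named after its values were seen. It was found in 40.7%, 32.7%, 21.1% and 34.1% of positive cells and 8.55 to 16.4% of the others, against 0.503 to 0.794% of the *Mki67* reference cells.

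The summed counts gave the same contrast without thinning. In the ependymal cells *Top2a* and *Mki67* had 600 and 15 UMIs in control replicate 1, 743 and 99 in control replicate 2, 517 and 15 in mutant replicate 1 and 344 and 59 in mutant replicate 2. The ratio of *Top2a* to *Mki67* was therefore 40, 7.51, 34.5 and 5.83, against 2.19, 1.06, 2.23 and 1.14 in the other cells of the same libraries. The ratio was higher in the ependymal cells in all 4 libraries. The 2-UMI score is accordingly described here by its genes and not as division.

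**Figure D3:**
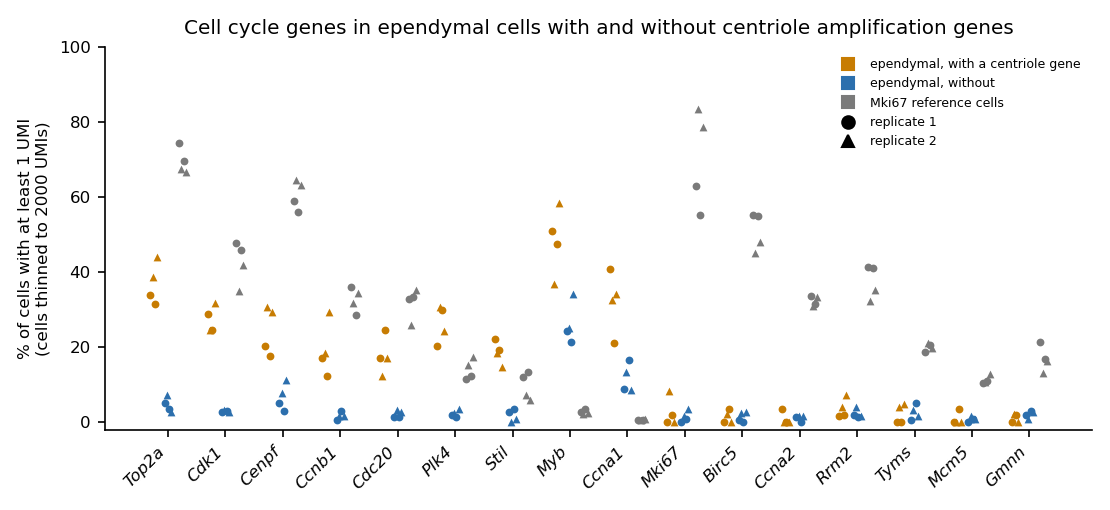
Share of cells with at least 1 UMI (cells thinned to 2000 UMIs) for ependymal cells with a UMI of *Deup1*, *Ccno*, *Cdc20b* or *Mcidas* (orange), the remaining ependymal cells (blue) and *Mki67* reference cells (grey); circles are replicate 1 and triangles replicate 2. *Top2a* was found in 31.6 to 43.9% of the first and 2.56 to 7.09% of the second, whereas *Mki67* and *Ccna2* stayed at or below 8.16% in both.

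Of 17 centriole amplification genes outside the 4 that defined the positive cells, 10 were found in a larger share of them in 4 of 4 libraries and 1, *Cetn4*, in a smaller share, beside the same 11.4% and 11.9% of all genes tested. *Plk4*, the kinase that starts centriole duplication, was found in 20.3%, 30.6%, 29.8% and 24.4% of positive cells and 1.43 to 3.42% of the others, and *Stil*, its partner, in 14.6 to 22.03% against 0 to 3.57%. *Myb* was found in 36.7 to 58.5% against 21.4 to 34.2%. Of the 20 genes of the surface and secreted list, 12 had lower mean UMIs per cell in the positive cells in 4 of 4 libraries. In the other direction 0 were higher, beside 12.9% and 11.8% of all genes tested. *Dbi*, *Fam183b* and *1110017D15Rik* were among the 12, and *Cd24a* and *Cst3* among the 8 with no single direction. By the share of cells with a UMI, 7 were lower in 4 of 4 libraries and 1, *Vcam1*, was higher, beside the 11.9% and 11.4% above. *Rarres2* had a mean of 1.88 UMIs per cell against 3.23 over the libraries, and the surface and secreted list summed to 33.3, 37.3, 35.6 and 41.0 UMIs per cell against 56.3, 56.4, 61.1 and 62.0. *Dbi* made up much of that sum, and without it the sums were 16.2, 22.2, 15.6 and 21.02 against 23.3, 28.6, 24.7 and 30.7 UMIs. The dynein arm genes summed to 18.8, 13.96, 17.4 and 14.4 UMIs against 17.9, 15.2, 17.3 and 12.8, with no single direction over the libraries, but their members parted both ways. By mean UMIs 8 of 23 were lower in the positive cells in 4 of 4 libraries, the heavy chain genes *Dnah3*, *Dnah5*, *Dnah11* and *Dnah14* among them, and 5 were higher, beside the same 12.9% and 11.8% of all genes tested. By the share of cells with a UMI, 6 were lower and 2 higher. *Foxj1* was higher in the positive cells and *Tmem212* and *Ccdc153* lower, in 4 of 4 libraries each, but these genes chose the cells. The positive cells were deeper before thinning in 3 of 4 libraries, with medians of 22270, 17209, 22946 and 14648 UMIs against 17922, 13709, 17001 and 14791, and their median mitochondrial share was lower in 4 of 4, at 2.05%, 4.95%, 2.73% and 4.10% against 2.82%, 6.43%, 3.32% and 5.21%. The part of depth, of the mitochondrial share or of doublets in the pattern was not tested.

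The replicate numbers took up most of the spread between the ependymal libraries. The common dispersion of edgeR, a squared coefficient of variation between libraries of a group, was 0.151 without and 0.0135 with the replicate number in the model. The 2893 genes with the widest span on the genome (70203 bases or more) had a median log2 ratio of replicate 2 to replicate 1 of -0.40 in control and -0.44 in mutant ependymal cells, and the 2893 with the narrowest span 0.07 and 0.22. The other cells showed the same at -0.50 and -0.54. *Spag16*, a central pair gene that spans 898163 bases (chr1:69826970-70725132), was at 1202 and 1169 CPM in replicate 1 and at 193 and 112 CPM in replicate 2. *Prickle2*, a planar polarity gene, was at 240.2 and 249.98 CPM in replicate 1 and 25.9 and 27.1 CPM in replicate 2. Levels of genes of wide span are thus not comparable between the replicate numbers. Cell Ranger counts intronic reads by default from version 7 on, but the headers do not state the setting used, and its part was not tested.

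Patterning genes went both ways. Of the 11 regional identity genes tested, 6 were higher in both libraries of replicate 2 than in both of replicate 1 and 2 were lower, beside 33.1% and 33.9% of all genes tested. *Zic4*, a dorsal midline factor gene, was at 43.2 and 49.3 CPM in replicate 1 and 177 and 176 CPM in replicate 2, *Zic1* at 25.5 and 29.3 against 86.9 and 102 CPM, *Otx2* at 27.9 and 26.1 against 68.4 and 83.4 CPM and *Msx1* at 40.6 and 31.9 against 58.8 and 124 CPM. The libraries of the 2 replicate numbers did not overlap for these 4 genes, which were named after their values were seen. *Lhx2*, a gene of the early forebrain, went the other way, at 144 and 164 CPM in replicate 1 and 89.1 and 115 CPM in replicate 2, as did *Emx1*. As above, replicate number, sex and software version cannot be told apart here. Over the regional identity list 0 of 11 genes tested were 4-fold higher or lower than in the other cells (median 0.35), and over the cell cycle list 0 of 20 were higher and 3 lower (median -1.29).

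The share of ependymal cells did not differ between genotypes beyond the spread of the libraries. Their share was 3.78% (216 of 5710 cells, 95% exact binomial interval 3.30 to 4.31%) and 5.92% (176 of 2973, 5.10 to 6.83%) in the control libraries and 3.48% (197 of 5659, 3.02 to 3.99%) and 4.82% (158 of 3281, 4.11 to 5.60%) in the mutant libraries. Replicate 2 was higher in both genotypes, and within each replicate number the mutant library was lower, by 0.302 and 1.10 percentage points. With every cell thinned to 2000 UMIs before the gate, the shares were 3.80% and 5.45% in the control libraries and 3.66% and 5.30% in the mutant libraries. The difference of the means went from -0.70 to -0.14 percentage points. In that setting the *Ttr* limit was 20 UMIs, and the limits of no *Dlx1*, *Dlx2* or *Pdgfra* UMI acted on thinned counts. The gate called 217, 162, 207 and 174 cells (control replicates 1 and 2, mutant replicates 1 and 2). The shift is thus not one of depth alone. The means were 4.85 ± 1.51% and 4.15 ± 0.944% (SD, n = 2 each), with p = 0.667 in an exact two-sided permutation test of 6 assignments, whose smallest possible p is 0.333. In the thinning draw reported, the centriole-gene share was 27.6 ± 0.372% and 27.4 ± 2.11%. The share with 2 UMIs of the 6 mitotic genes was 13.05 ± 4.05% and 13.1 ± 2.04% (exact permutation p = 1 for each share, n = 2). Over 20 draws the mean centriole-gene share was 28.2% and 27.7% in the control libraries and 28.02% and 24.8% in the mutant libraries. With 2 libraries a group, the permutation test could not reach p under 0.05 for a difference of any size.

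**Figure D4:**
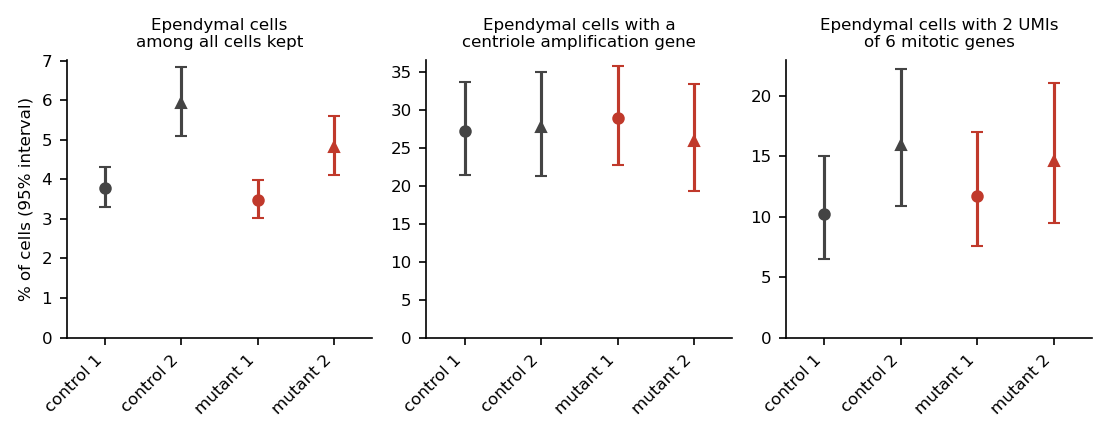
Left, percentage of all cells kept that were ependymal; middle and right, percentage of ependymal cells (thinned to 2000 UMIs) with a centriole amplification gene and with at least 2 UMIs of 6 mitotic genes. Points are libraries (dark grey control, red mutant, circles replicate 1, triangles replicate 2) with 95% exact binomial intervals, and replicate 2 lies above replicate 1 in both genotypes in the left panel.

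*Chd8* transcripts (chr14:52198151-52257780, minus strand) were not lower in the ependymal cells labelled mutant. They were at 46.5 and 83.6 CPM in the control libraries and 54.0 and 95.5 CPM in the mutant libraries, from 195, 226, 203 and 229 UMIs. The mutant library was higher within each replicate number, by 0.18 and 0.12 on the log2 scale after normalization. The overall log2 change was 0.16 (SE 0.438), with an adjusted p of 0.99998 in the quasi-likelihood test of edgeR and 0.999 with the replicate block. The deletion removes internal exons, and where in the gene the UMIs lie was not examined, so this level does not check the genotype labels. By immunoblot, the study reports significantly less CHD8 protein in tdTomato-positive cells sorted from mutant embryos. That measure is of protein, at an earlier stage and over all sorted cells.

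No gene passed the threshold between mutant and control ependymal cells when the summed UMIs were tested by genotype alone. Of 13480 genes, 0 had an adjusted p under 0.05 in edgeR (0%), while 24 had an unadjusted p under 0.05. DESeq2 called 0 and had 13 at an unadjusted p under 0.05. With the replicate number as a block, edgeR called 2 genes, both lower in the mutant (0.0148%), and 565 had an unadjusted p under 0.05. Without any difference a share of 0.05 of the genes would have an unadjusted p under 0.05, and each of these counts is below that share. The count of 565 is therefore no sign of many changes. The dispersion was larger without the block, as given above, so the lack of calls does not show that no gene differed.

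The 2 genes encode linker histones, a family in which the other members tested did not pass the threshold. *Hist1h1b* (chr13:21779883-21780625, minus strand), which encodes histone H1.5, was at 31.2 and 62.0 CPM in the control libraries and 17.4 and 12.3 CPM in the mutant libraries after normalization. Its log2 change was -1.51 (SE 0.246, edgeR adjusted p 0.00162 with the block, 0.99998 without). *Hist1h1e* (chr13:23620629-23622558, minus strand), which encodes histone H1.4, was at 283, 385, 235 and 80.9 CPM and had a log2 change of -1.20 (SE 0.212, edgeR adjusted p 0.00458 with the block). Mutant replicate 2 was by far the lowest library for *Hist1h1e*, and in replicate 1 the log2 difference was -0.26. Of the other linker histone genes, *Hist1h1c* had a log2 change of -0.10 (SE 0.153) and *Hist1h1d* of -0.77 (SE 0.318) with the block, both at an edgeR adjusted p of 0.999. The same library was lowest in cells other than ependymal. *Hist1h1e* was at 423, 703, 348 and 119 CPM and *Hist1h1b* at 200, 542, 161 and 81.4 CPM in the other cells of control replicates 1 and 2 and mutant replicates 1 and 2. *Gm42418*, a noncoding RNA that overlaps ribosomal RNA sequence, was also lowest in that library among the ependymal cells, at 20515, 39574, 21433 and 11388 CPM, as was *Lars2*, at 449, 662, 376 and 269 CPM. Mutant replicate 2 was thus the lowest library for these 4 transcripts in the other cells too, where *Gm42418* was at 8635, 19520, 8949 and 5147 CPM. Control replicate 2 was the highest library for the same 4 transcripts, in the ependymal and in the other cells. The part of these libraries in the 2 calls was not tested. Both calls were lost with the block at a limit of 5% mitochondrial UMIs, and that of *Hist1h1b* was lost with the block after cells carrying 3 UMIs of any of 7 other cell type lists were removed.

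No list held a gene past the threshold without the block, and with it the lists held 0 as well. Motile cilium lists had small negative medians. The median log2 change was -0.17 over the 23 dynein arm genes, -0.12 over docking and assembly and -0.11 over radial spoke and central pair. It was -0.06 over doublet and inner proteins, beside -0.0040 over all 13480 genes. Within replicates 1 and 2 the dynein arm median was -0.08 and -0.26, and that of docking and assembly -0.08 and -0.11. Radial spoke and central pair had -0.09 and -0.13, and doublet and inner proteins -0.09 and -0.07. Of the dynein arm genes 15 of 23 were lower in the mutant within both replicate numbers and 0 higher in both, beside 25.9% and 23.5% of all genes tested. The same tally was 16 lower and 2 higher of 24 for radial spoke and central pair, 11 and 2 of 27 for doublet and inner proteins, 8 and 1 of 23 for docking and assembly, and 16 and 6 of 31 for IFT and BBS genes. *Dnah12*, *Hydin* and *Rsph1* above are single examples and not typical sizes. *Hydin* had log2 differences of -0.23 and -0.56 within replicates 1 and 2, larger than the medians of its list, and *Dnah12* had -0.14 and -0.25. *Dnah12* spans 198430 bases, so its gap between the replicate numbers is no measure of the genotype differences. The medians were -0.04 for IFT and BBS genes, -0.09 for centriole amplification, 0.06 for regulators, 0.05 for planar polarity and 0.04 for the surface and secreted list. They were 0.10 for the astroglial list, -0.07 for the cell cycle, 0.16 for regional identity and -0.08 for early response genes. The astroglial list had 9 of 24 genes higher and 2 lower within both replicate numbers, and the surface and secreted list 8 and 2 of 20. Among other cell types, medians were 0.58 (endothelial, 4 genes), 0.39 (mural, 5), 0.39 (oligodendroglial, 7) and 0.10 (fibroblast, 4). They were 0.02 (microglia, 2), -0.11 (neuron, 6) and -0.14 (choroid plexus, 8). Genes of one list share cells, and the lists were not tested.

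**Figure D5:**
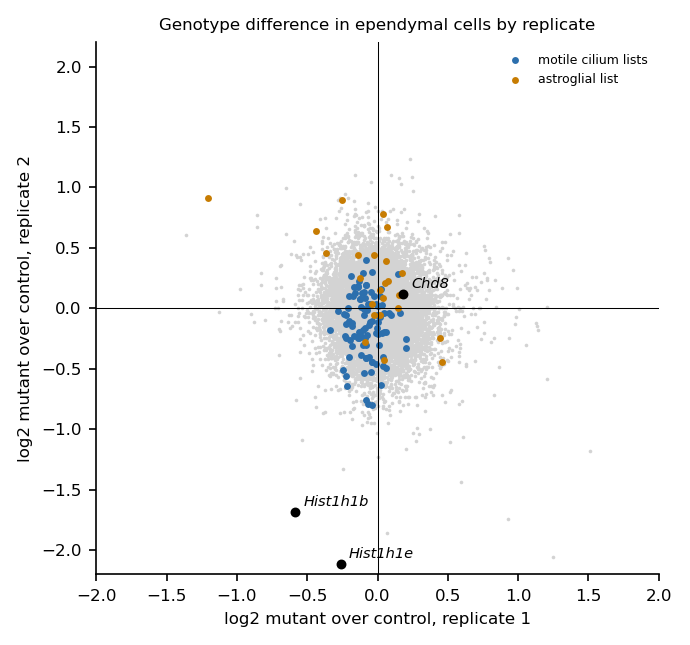
Log2 ratio of mutant to control ependymal cells (normalized CPM + 10) in replicate 1 (x) and replicate 2 (y) for 13480 genes (grey), the 4 motile cilium lists (blue) and the astroglial list (orange); 1 gene lies outside the axes. *Hist1h1b* and *Hist1h1e* lie low in replicate 2 (-1.69 and -2.12) and nearer 0 in replicate 1 (-0.59 and -0.26), and *Chd8* lies above 0 in both.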

How the data were processed

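The authors deposited unnormalized UMI counts, 1 matrix for each of 4 libraries (Chromium 3′ v3.1, mm10). The submitters' processing notes name Cell Ranger 3.0 and the file headers 7.0.0 and 5.0.1. Library totals were 46274374 to 79328841 UMIs, and the ependymal cells held 2396830 to 4192207, so that 3 counts equal 0.716 to 1.25 CPM. The members and the gene lists (25, from textbook knowledge) were chosen with earlier results of these data known. Counts were summed per library and tested with edgeR 4.0.16 (quasi-likelihood, filterByExpr, TMM, Benjamini-Hochberg, threshold 0.05) and, as an alternative, DESeq2 1.42.0. The edgeR procedure was tested on simulated data, and the outcome is not given here. Named genes were the 4 markers, *Chd8*, sex-linked genes, up to 5 members of each list with the highest level and 3 with the largest ratio, 20 genes outside the lists with the largest lowest ratio, and genes past the threshold. Tallies over whole lists by cell state and by replicate number were added after seeing the data. Others in the text were named after their values were seen. Samples with the same replicate number deviated together from their group means (r = 0.829 for both numbers, which 2 libraries a group make equal), and the number coincides with the software version in the headers, so blocked values are given where they change a call. Gene positions are from GENCODE vM21 (32158 of 32285 genes matched). Alternatives were another gate minimum, mitochondrial limit, filter, scaling, thinning and removal of mixed cells. Draws, R 4.3.3 and Python 3.11.15 used fixed seeds. Some genes and the summed level of the inhibitory neuron list are not reported here.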

Additional observations from a re-analysis of the deposited data

Results flagged for a closer look

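In the thinning draw reported, the genotype difference of 2 shares within ependymal cells had opposite signs in the 2 replicate numbers, which also differ in sex-linked transcripts, and the difference between them was not tested. The share with a centriole amplification gene was higher in the mutant by 1.62 percentage points in replicate 1 and differed by -1.89 percentage points in replicate 2. Over 20 draws its mean was 28.2% in control and 28.02% in mutant replicate 1, and 27.7% and 24.8% in replicate 2, lower in the mutant in both, so the opposite signs rest on the draw. The share with 2 UMIs of 6 mitotic genes differed by 1.49 and -1.35 percentage points, and its means over the draws were 11.9% and 12.9% in replicate 1 and 17.02% and 15.4% in replicate 2 (control, then mutant). *Rarres2* differed by -0.02 and 0.06 on the log2 scale (-0.0235 and 0.0635), within the spread of these libraries.

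Barcodes outside the quality filters also passed the gene gate, which was 26 and 34 in the control libraries and 17 and 59 in the mutant libraries (replicates 1 and 2 of each). They made up 1.08 to 1.72% of the barcodes removed, and in replicate 2 most of them (25 and 37) had over 10% mitochondrial UMIs. These barcodes entered no comparison above.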

How the results depend on the processing

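The settings with added subsets and thinning draws were chosen after seeing the data. No genotype call was made without the replicate block under any of the alternatives run, including leaving out each library in turn (0 to 0 genes, where a group left with 1 library is assumed to vary like the other). The block gave 2 genes, 11 with a gate minimum of 5 (3 higher and 8 lower: *Hist1h1b*, *Hist1h1e*, *Gm42418*, *Lars2*, the oligodendrocyte marker *Mbp*, the mitochondrial *mt-Atp8*, *Rpl39*, *Cxcl10*, *Anxa8*, *Gpc5* and *1700016J18Rik*), 7 without cells holding 3 UMIs of any of 7 lists of other cell types, choroid plexus and neuron not among them (1 higher and 6 lower: *Hist1h1e*, *Gm42418*, *Lars2*, *mt-Atp8*, *Cxcl10*, *Anxa8* and *Hes5*), and 0 with at most 5% mitochondrial UMIs. With 2 pairs the numbers are not established as pairs by the samples alone. The cause of these shifts was not tested. The 485 genes higher than in other cells became 1013 with a pseudocount of 1 CPM and 1295 at 2-fold, and ranged from 493 to 510 with each library left out, and the 82 motile cilium genes from 82 to 83, since fewer libraries then had to pass.

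The ependymal share differed by -0.70 as reported and by -0.14 with every cell thinned to 2000 UMIs, where the gate also acted on thinned counts. It differed by 0.0018 percentage points without mixed cells of any of 9 lists (which left few cells) and from -1.77 to 0.366 with 1 library left out. It reversed without control replicate 2. The centriole-gene share differed by -0.14 as reported, by 0.0656 with a gate minimum of 5, by -2.43 when 2 UMIs were required, by -3.16 with at most 5% mitochondrial UMIs and by -5.63 to 2.25 over 20 thinning draws, and ranged from -1.63 to 1.36 with 1 library left out, reversed without control replicate 2 (0.127) or mutant replicate 2. The share with 2 UMIs of 6 mitotic genes differed by -4.79 with at most 5% mitochondrial UMIs (10.6%, 31.6%, 12.9% and 19.8%), by -0.464 with no such limit, by -2.41 to 1.73 over the draws, and from -2.79 to 2.93 with 1 library left out, reversed without control replicate 1 or mutant replicate 2 (-1.37). The log2 change of *Chd8* was 0.17 with the block and ranged from -0.28 to 0.68 with 1 library left out, reversed without control replicate 1 (-0.21) or mutant replicate 2. Removing mixed cells of all 9 lists left under 20 ependymal cells in each library, so levels, gene calls and *Chd8* were not run under it. In the 11, 6, 7 and 9 cells that remained (control replicates 1 and 2, mutant replicates 1 and 2), 8, 3, 3 and 6 carried a centriole gene and 4, 2, 3 and 6 had 2 UMIs of the mitotic genes, differences of -6.60 and 19.9 percentage points between genotypes.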

Other observations

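Early response genes were counted as well, since dissociation and sorting are known to raise them. *Fos* was at 1247, 1396, 1224 and 1425 CPM in the ependymal cells of control replicates 1 and 2 and mutant replicates 1 and 2, beside a mean of 585 CPM in the other cells and 1145 CPM in the astrocyte gate. *Atf3*, a stress factor gene, was at 129, 118, 75.3 and 107 CPM against 12.4 CPM and was the 1 of 12 genes of this list higher by 4-fold in every library. *Cdkn1a*, which encodes the cell cycle inhibitor p21 and was named after its values were seen, was at 241, 196, 251.3 and 226 CPM against 35.6 to 59.1 CPM in the other cells, and had a UMI in 36.7 to 49.1% of centriole-gene positive cells and 25 to 29.9% of the remaining ependymal cells.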
